A study of Mus musculus with 24 samples.

Results

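Sites of histone H3 lysine 27 acetylation (H3K27ac) that were listed in unedited mouse fibroblasts of more than 1 kind and in none of the 3 fibroblast lines in which Prrx1 had been targeted with a guide RNA are described here. They were selected on the measured peak lists themselves. The summits of 7 H3K27ac lists were widened by 250 bp on each side and merged into 100984 sites, and a site was kept if at least 2 of the 3 wild-type (WT) lists and none of the 3 guide-RNA (SG) lists had a summit in it. This left 2099 recurrently absent sites out of the 33995 sites that at least 2 WT lists held, which is 6.17% of them. The remaining 31896 are called the other WT sites. The mirror rule, no WT list and at least 2 SG lists, gave 3325 recurrently gained sites, or 9.06% of the 36720 sites that at least 2 SG lists held.

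The 3 kinds of cultured fibroblasts were mouse embryonic fibroblasts (MEF, strain C57BL/6, from embryos of day 10 to 13), fibroblasts of the mammary tumours that arise in the MMTV-PyMT model (cancer-associated fibroblasts, MMTV-CAF, strain FVB/NJ), and fibroblasts taken from dorsal skin wounds of C57BL/6 mice at day 10. According to the labels all lines carried the papillomavirus genes E6 and E7, WT lines included, and the deletion used CRISPR with a guide RNA against Prrx1, with a non-targeting guide in control cells. A seventh H3K27ac list came from MEF labelled KI, which were read as cells of the mutant mouse that the methods describe, in which lacZ is inserted into the homeodomain of Prrx1. Every group had 1 library, strain goes with fibroblast type, and nothing in the labels says how many animals or clones a line came from. Differences between genotypes and differences between single cultures can therefore not be told apart, and no p-value is given.

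H3K27ac marks active promoters and enhancers, and it is laid down by acetyltransferases that transcription factors recruit. H3K4me3, the second mark measured, sits mainly at transcription start sites (TSS). Prrx1 is a paired-related homeobox factor of mesenchyme, needed for limb and craniofacial development and known in adult tissue for fibroblast and stromal programmes. Homeobox proteins bind AT-rich sequence built around the core TAAT, and paired-type homeodomains can bind inverted repeats of it, of which TAATTA is the shortest form.

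The H3K27ac lists held 29325 to 61603 summits, KI_MEF being the smallest and SG_MMTV the largest, with medians of the −log10 p-value between 11.9 and 21.2. H3K4me3 covered a TSS of 8 or 9 of 9 fibroblast markers in each WT list, among them Col1a1, Col1a2, Pdgfra and Vim. It covered 8 in SG_MEF and SG_MMTV and 6 in SG_Wound and KI_MEF, and SG_Wound lacked S100a4 and Thy1, which WT_Wound had. Of 5 haematopoietic and 2 skeletal muscle markers, 0 were covered in a WT list, 1 of 4 endothelial markers was (Kdr), and at most 1 of 6 epithelial markers was (Cdh1). At the Prrx1 gene itself (chromosome 1, 165175247 to 165243841, mm9), 14 WT sites lay in the gene or within 10 kb, of which 1 was recurrently absent and 5 were present in all 3 SG lists. H3K27ac at the gene was thus still listed in the SG cells, and the lists do not show whether the protein was lost.

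Sequences are shown for some of the 24 absent sites that had both a Prrx1 summit and the homeobox motif. Each is 201 bases of the plus strand of mm9 around the strongest WT H3K27ac summit, with TAATTA in capitals. The first had the highest strength among the named sites with a Prrx1 summit and the motif, and its nearest SG summit was 678 bp away. The next 2 had Prrx1 summits of 2 lists and SG summits at 584 and 706 bp. The last 2 lay more than 2 kb from any SG summit.
Site 90 kb from 1700001O22Rik, chr2:30567279-30567479: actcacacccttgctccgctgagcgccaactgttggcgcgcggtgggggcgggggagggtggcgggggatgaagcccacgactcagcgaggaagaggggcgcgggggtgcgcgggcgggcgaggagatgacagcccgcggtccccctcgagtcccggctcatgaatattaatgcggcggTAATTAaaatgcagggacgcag
Site 107 kb from Zfp36l2, chr17:84479447-84479647: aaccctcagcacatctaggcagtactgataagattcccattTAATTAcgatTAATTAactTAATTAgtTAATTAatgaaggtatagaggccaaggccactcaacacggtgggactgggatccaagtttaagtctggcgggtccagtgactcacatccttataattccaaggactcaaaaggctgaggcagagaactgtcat
Site 0.633 kb from Srpk2, chr5:23122922-23123122: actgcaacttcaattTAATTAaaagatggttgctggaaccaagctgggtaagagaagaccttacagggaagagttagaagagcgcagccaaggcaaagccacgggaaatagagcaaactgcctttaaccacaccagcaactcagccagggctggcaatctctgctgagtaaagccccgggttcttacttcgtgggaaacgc
Site 294 kb from Acvr2a, chr2:48375866-48376066: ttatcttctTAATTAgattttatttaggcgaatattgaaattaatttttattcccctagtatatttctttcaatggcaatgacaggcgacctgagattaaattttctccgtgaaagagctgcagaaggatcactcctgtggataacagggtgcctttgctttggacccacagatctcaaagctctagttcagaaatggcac
Intron of Antxr2, chr5:98415833-98416033: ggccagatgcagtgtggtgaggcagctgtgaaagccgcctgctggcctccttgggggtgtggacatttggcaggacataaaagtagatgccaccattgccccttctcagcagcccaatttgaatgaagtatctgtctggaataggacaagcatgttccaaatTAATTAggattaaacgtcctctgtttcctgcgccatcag
The window near Zfp36l2 held 4 copies of TAATTA side by side, and its nearest Prrx1 summits were 27 bp (MMTV-CAF) and 47 bp (wound fibroblasts) from a WT H3K27ac summit. The window near Srpk2, a kinase of splicing factors, where WT_MEF had no H3K27ac summit, held 1 copy. Its nearest Prrx1 summits were 29 bp (MEF) and 26 bp (MMTV-CAF) from a WT H3K27ac summit. At the site beyond Acvr2a, an activin receptor, they were 271 bp (MEF) and 130 bp (MMTV-CAF) away. In the intron of Antxr2, which encodes a receptor for collagen and laminin, the only Prrx1 summit was the one of MMTV-CAF, at 99 bp. The H3K27ac values of these 5 sites ranged from strong to weak. The site nearest 1700001O22Rik had a −log10 p of 77.9 in WT_MEF, 70.2 in WT_MMTV and 13.7 in KI_MEF. The site near Zfp36l2 had 12.5 in WT_MMTV and 6.82 in WT_Wound, the Srpk2 site 17.6 in WT_MMTV, 11.3 in WT_Wound and 14.2 in KI_MEF. The site beyond Acvr2a had 10.5 in WT_MEF and 15.3 in WT_MMTV, and that in Antxr2 had 11.6 and 13.7 in the same lists. All other H3K27ac lists had no summit in these sites, and the missing summits included WT lists of 1 type at each of the 5.

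The absent sites were weak. Their strength, the mean −log10 p of the WT summits in a site, had a median of 12.6, against 14.6 for WT sites held by 1 SG list, 18.1 for those held by 2 and 31.0 for those held by all 3. The share of WT sites that was absent fell from 23.1% below a strength of 10, to 9.47% between 10 and 20, 2.78% between 20 and 40, and 1.05% from 40 upward. In WT_MEF the absent sites had a median −log10 p of 12.1 and other WT sites 26.3, in WT_MMTV 12.5 and 28.9, and in WT_Wound 11.0 and 18.2. Since a weak summit can fall below the cutoff in any second list, the shares of Prrx1 summits, motifs, KI summits, promoters and H3K4me3 given below for the absent sites stand beside those of other WT sites reweighted to the same combination of WT lists and the same 10 classes of strength, called the matched share. Shares given with no matched value were not reweighted. After reweighting the mean strength was 16.06 in the absent and 16.09 in the other sites.

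Most absent sites were held by only 2 WT lists. The sites of MEF and MMTV-CAF numbered 1008 (11.6% of the 8699 WT sites with that pattern), those of MEF and wound fibroblasts 459 (13.2%), and those of MMTV-CAF and wound fibroblasts 466 (14.3%). Sites held by all 3 WT lists were absent from all 3 SG lists in 166 of 18547 cases, or 0.895%. Gained sites outnumbered absent ones in every pattern, with 1037, 629, 1343 and 316 sites in the same order. The ratio of absent to gained sites was 0.631, and it was 0.947 with lists of equal size and 1.04 without the wound lists. Just inside the rule, 384 absent sites had their nearest SG summit 501 to 600 bp away (median strength 15.2), and just outside it 92 other WT sites had theirs 401 to 496 bp away (16.9). Also outside lay 5132 WT sites held by 1 SG list and 15734 sites held by 1 WT list and no SG list, with median strengths of 14.6 and 10.2.

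**Figure D1:**
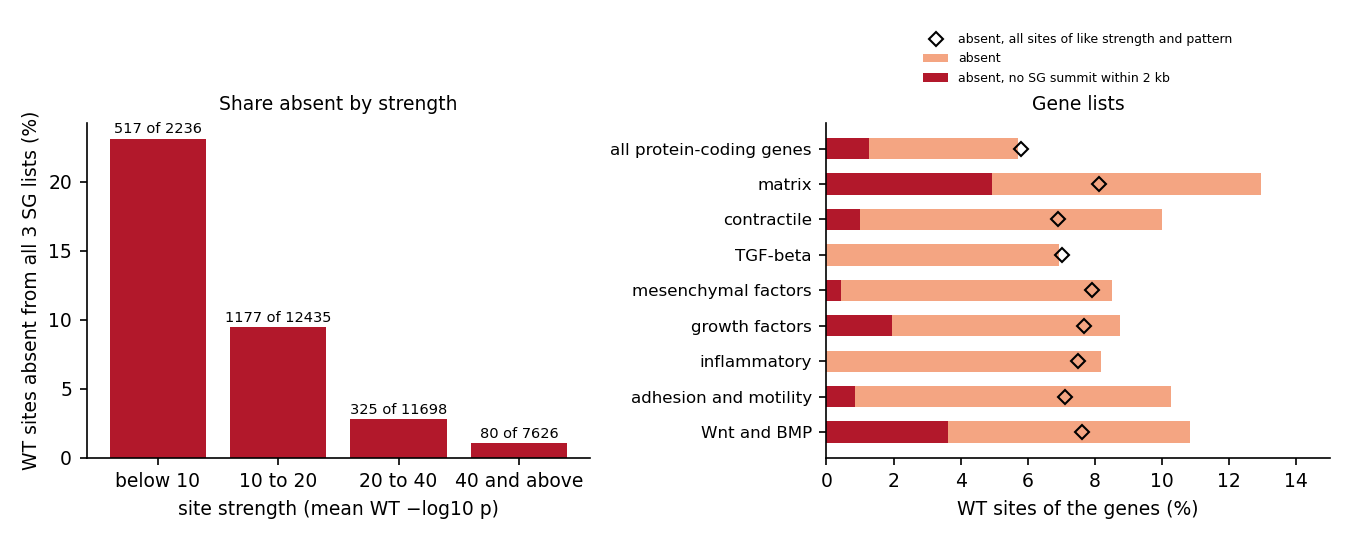
Left, percentage of sites held by at least 2 WT lists that were absent from all 3 SG lists, by site strength (mean WT −log10 p), with the numbers of sites above the bars, which fall from 23.1% to 1.05%. Right, percentage of the WT sites of each gene list that were absent (pale bars) and absent with no SG summit within 2 kb (dark bars), with diamonds for the share among all WT sites of like strength and pattern; the matrix list reached 13.0% against 8.12%.

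The word absent did not mean that acetylation was missing from the neighbourhood. Of the 2099 sites, 1150 (54.8%) had an SG summit within 1 kb and 1535 (73.1%, Wilson 95% interval 71.2 to 74.98%) within 2 kb of a WT summit, and the median distance was 919 bp. With summits widened by 500 bp in place of 250, the rule left 832 sites, of which 32.8% had an SG summit within 2 kb. The neighbouring SG summit had a higher −log10 p than the absent site in 72.7% of those 1535. Among gained sites, 58.0% (56.3 to 59.7%) had a WT summit within 2 kb. Of the absent sites 564 had no SG summit within 2 kb, 306 had none within 10 kb and 84 none within 50 kb. The distance of 2 kb was chosen after these values were seen, and the 564 are called isolated absent sites here. Their median strength was 11.8. Of them, 429 (76.1%) were held by WT_MEF and WT_MMTV, 88 by WT_MMTV and WT_Wound, 32 by WT_MEF and WT_Wound, and 15 by all 3. The isolated sites were therefore mostly ones that the wound fibroblasts lacked in both genotypes.

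**Figure D2:**
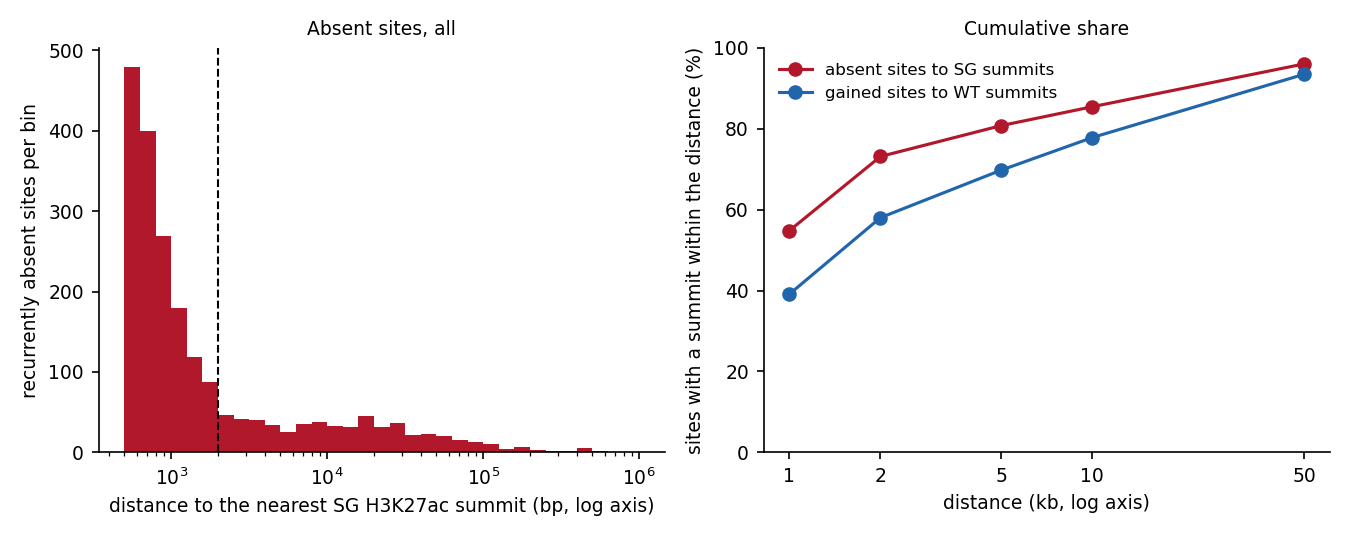
Left, number of recurrently absent sites by the distance from a WT summit to the nearest H3K27ac summit of any SG list (bp, log axis; dashed line, 2 kb). Right, cumulative percentage of absent sites with an SG summit and of gained sites with a WT summit within 1 to 50 kb (log axis), 73.1% and 58.0% at 2 kb.

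Most of the strongest absent sites were at promoters, and all had an SG summit beside them. Of the 12 with the highest strength, 9 lay within 1 kb of a TSS and all 12 had an SG summit between 523 and 1546 bp away. Strong WT sites lay at promoters in general: from a strength of 40 upward 66.3% of the 80 absent and 75.9% of the other WT sites did. The site at Eif3d, a subunit of translation initiation factor 3 (chr15:77801388-77801998), had a −log10 p of 117 in WT_MMTV, 55.5 in WT_Wound and 13.9 in KI_MEF. At Trim8, a ubiquitin ligase, the values were 110 in WT_MMTV, 59.5 in WT_Wound and 13.7 in KI_MEF. At Ppp2r4, an activator of protein phosphatase 2A, they were 101 in WT_MEF, 64.8 in WT_Wound and 46.6 in KI_MEF. In each of these 3 sites 1 WT list had no summit either. Srf, which drives cytoskeletal and contractile genes, had a site 0.403 kb from a TSS with 73.4 in WT_MEF, 101 in WT_MMTV and 42.8 in WT_Wound and 14.3 in KI_MEF, and its nearest SG summits were 550 bp (MEF), 820 bp (MMTV-CAF) and 775 bp (wound) away. Cebpb, a basic leucine zipper factor, had 99.0 in WT_MMTV and 56.8 in WT_Wound, Prrx1 summits of 2 lists, and an SG summit at 1154 bp. Fscn1, an actin bundler, Emp3, a membrane protein, and Ppia, a peptidyl-prolyl isomerase, were also among the 9 promoters. Arid2, a subunit of a SWI/SNF complex, had a site 2.46 kb from its TSS. A pair of intergenic sites at strengths of 78.9 and 74.0 lay 83 and 90 kb from 1700001O22Rik, and 116 and 123 kb before the start of Prrx2, the paralogue of Prrx1. None of the 6 WT sites in Prrx2 or within 10 kb of it was absent, and a link of the pair to Prrx2 was not tested.

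Among the sites held by all 3 WT lists the picture was the same. Of the 12 strongest, which ran from Emp3 at 75.9 to Cenpa, the centromeric histone variant, at 40.8, 11 lay within 1 kb of a TSS, 12 had an SG summit within 2 kb and 12 had a KI summit. From a strength of 40 upward 90.2% of the other WT sites had a KI summit, and 78.8% of the absent ones had. Hsph1, a heat shock protein, had 58.5 in WT_MEF, 75.6 in WT_MMTV and 35.6 in WT_Wound with SG summits 602 to 654 bp away. At Cpsf3, a subunit of the polyadenylation machinery, the SG summits lay 583 to 589 bp away.

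**Figure D3:**
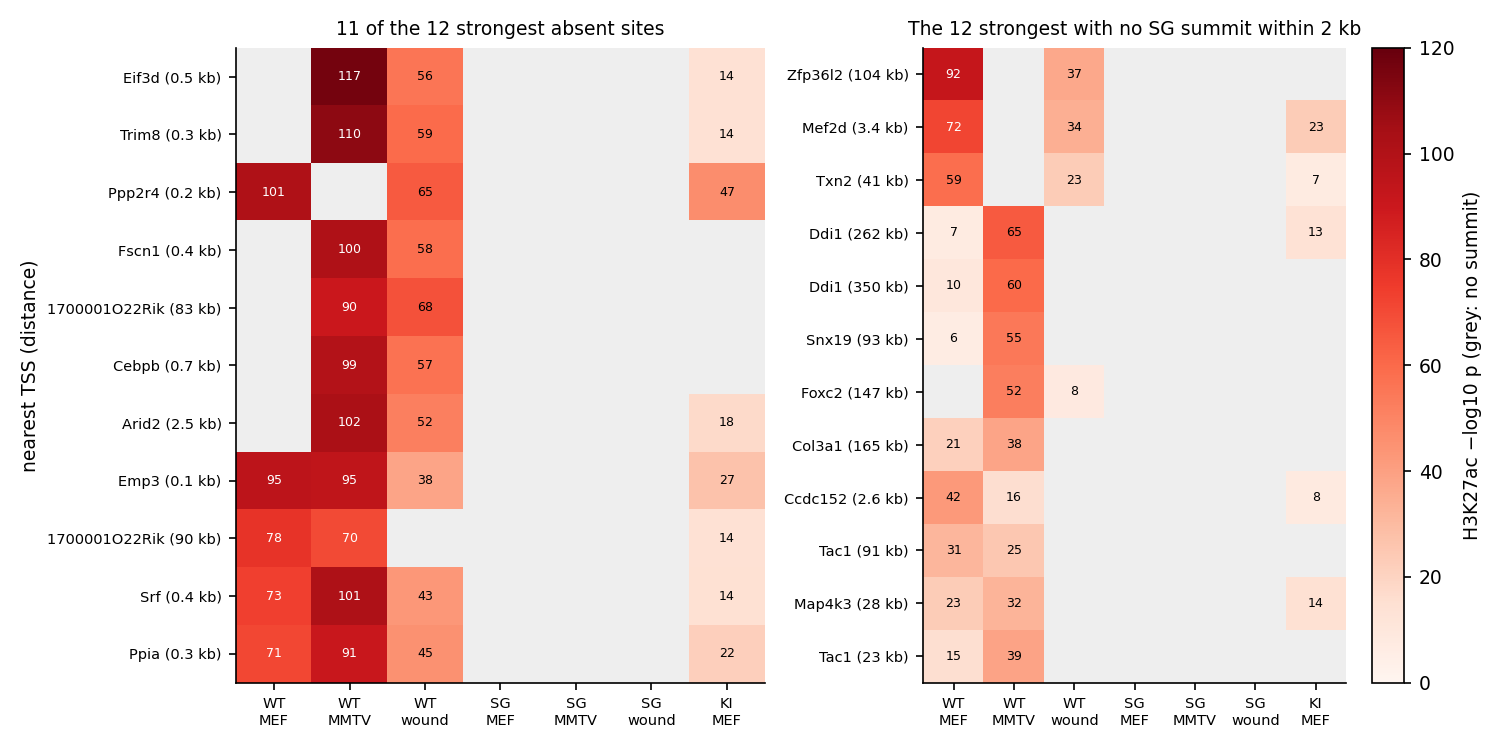
H3K27ac −log10 p (colour and number) of 11 of the 12 strongest recurrently absent sites (left) and of the 12 strongest isolated ones (right) in the 7 lists, with grey for no summit, named by the nearest TSS and its distance. The SG columns are empty because the rule chose the sites so, and 8 of the 11 sites on the left and 5 of the 12 on the right had a KI summit.

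The isolated sites were mostly far from promoters. Of the 564, 15 (2.66%, 1.62 to 4.34%) lay within 1 kb of a TSS, 269 were in introns and 256 were intergenic, and the median distance to a TSS was 41.4 kb. The matched share at promoters was 10.3%, but matched sites have an SG summit by definition while the isolated sites were chosen for having none within 2 kb, so this difference is a description of the choice. The strongest lay 104 kb from Zfp36l2, which encodes an RNA-binding protein of mRNA decay (chr17:84482527-84483072), with 92.3 in WT_MEF, 36.8 in WT_Wound and no summit in WT_MMTV or KI_MEF. Its nearest SG summits were 2646 to 2770 bp away, so it passed the 2 kb limit narrowly, and it lay next to the absent site with the 4 motif copies printed above. The next lay 3.43 kb from Mef2d, a MADS-box factor, with 71.5 in WT_MEF, 34.4 in WT_Wound and 23.2 in KI_MEF. Both had a Prrx1 summit of MMTV-CAF, at 165 and 62 bp, although WT_MMTV had no H3K27ac summit in either.

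Several isolated sites were far from any SG summit. One, 165 kb from Col3a1, the gene of collagen III (chr1:45203346-45203947), had 21.4 in WT_MEF and 38.4 in WT_MMTV, none in WT_Wound and KI_MEF, and its nearest SG summits were 104 kb (MEF), 101 kb (MMTV-CAF) and 104 kb (wound) away. Prrx1 summits lay 424 bp (MEF) and 391 bp (MMTV-CAF) from its WT summits. A pair of sites 262 and 350 kb from Ddi1, with SG summits no nearer than 9415 and 51362 bp, had 64.9 and 59.7 in WT_MMTV and only 7.09 and 10.1 in WT_MEF, each with a Prrx1 summit of MMTV-CAF. The first also had 13.2 in KI_MEF, and the other had no KI summit. A pair with Tac1 as the nearest gene, the precursor of substance P, whose nearest SG summits were 7950 and 83642 bp away, had 31.4 and 15.2 in WT_MEF and 24.9 and 38.6 in WT_MMTV. In the intron of Gm20388 and 147 kb from Foxc2, a forkhead factor of mesenchyme, a site 21084 bp from an SG summit had 52.4 in WT_MMTV and 8.35 in WT_Wound. Where a site was strong in 1 WT list and near the cutoff of 5 in the other, its place in the set hung on that weak summit.

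Over all absent sites the share with a Prrx1 summit was close to that of other WT sites of the same strength. A Prrx1 summit of any of the 3 WT lists lay within 500 bp of 241 absent sites, or 11.5% (10.2 to 12.9%), against a matched share of 10.8%. By list the shares were 7.72% against 7.37% for MMTV-CAF, 5.48% against 4.64% for wound fibroblasts, and 2.001% against 1.46% for MEF. Counting only Prrx1 summits of a type whose WT list held the site, the share was 9.10% (7.94 to 10.4%) against 8.47%. Prrx1 summits of 2 lists were found at 48 sites and of all 3 at 15, together 3.001% (2.35 to 3.82%) against 2.21% matched. Without reweighting the other WT sites stood higher, at 15.9%.

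At the isolated sites the share with a Prrx1 summit was higher than the matched share. Here too the matched sites have an SG summit by definition, while the isolated sites were chosen for having none within 2 kb. Prrx1 summits lay within 500 bp of 79 of the 564, or 14.0% (11.4 to 17.1%), against 9.36%. The MMTV-CAF list gave 10.8% (8.51 to 13.7%) against 6.52%, the MEF list 3.01% (1.89 to 4.77%) against 1.65%, and the wound list 4.43% (3.02 to 6.46%) against 3.65%. Sites with an SG summit within 2 kb stood at 10.6% (9.11 to 12.2%) against 11.3%. Counting only Prrx1 summits of a type whose WT list held the site, isolated sites stood at 11.7% (9.30 to 14.6%) against 7.59%. The isolated sites with a Prrx1 summit were nearly all of 1 pattern: 71 of the 79 were held by WT_MEF and WT_MMTV. They made up 16.6% of the 429 isolated sites of that pattern, against 3 of 88 (3.41%) for WT_MMTV and WT_Wound. For WT_MEF and WT_Wound it was 3 of 32 (9.375%), and for all 3 lists 2 of 15 (13.3%). Without the wound lists the difference over all absent sites was 2.61 points, and without the MEF or the MMTV-CAF lists it turned to -1.44 and -1.005 points. It also turned when sites were matched on their lowest WT value (-0.339) and when Prrx1 summits had to lie within 250 bp (-0.514).

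Of the 15 absent sites with Prrx1 summits of all 3 lists, 6 were isolated. They included a site in an intron of Ncoa3, a nuclear receptor coactivator, with 14.1 in WT_MEF and 32.8 in WT_MMTV. Others lay in an intron of Ntn1, which encodes netrin-1 (8.55 and 24.4 in the same lists), 41.1 kb from Fbn1, the gene of fibrillin-1 (10.7 and 21.4), and 24.3 kb from Sik1, a salt-inducible kinase (10.9 and 21.1). At these 4 sites neither WT_Wound nor KI_MEF had a summit. The strongest of the 15 were the promoter sites of Gng8, a G protein subunit, and Ephb3, an ephrin receptor. Gng8 had 49.2 in WT_MEF and 17.2 in WT_Wound, Ephb3 had 49.8 and 16.1, and both had SG summits within 1 kb.

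TAATTA lay within 100 bp of the strongest WT summit in 74 absent sites, or 3.53% (2.82 to 4.40%), against 2.62% matched and 2.07% of all WT sites. TAATTA reads the same on both strands, so 1 strand was enough to search. Among absent sites with a Prrx1 summit it was found in 24 of 241, or 9.96% (6.78 to 14.4%), against 6.63% of matched other WT sites with a Prrx1 summit. Among absent sites without a Prrx1 summit it was found in 2.69% (2.05 to 3.53%). The lead of the absent sites over matched ones was lost when the MEF lists or the MMTV-CAF lists were left out, with differences of -0.0697 and -0.297 points. Other motifs were searched on both strands. GGGTGG, which Krüppel-like factors bind, was found in 15.8% (14.3 to 17.4%) against 18.5% matched, and in 20.9% of all WT sites. The AP-1 motif TGANTCA was found in 4.43% (3.63 to 5.40%) against 5.13% matched. The TEAD motif GGAATG was found in 12.4% (11.0 to 13.9%) against 10.9%, and the RUNX motif TGTGGT in 14.1% (12.6 to 15.6%) against 14.5%. In all WT sites these 3 stood at 3.86%, 10.0% and 12.1%. A motif match is a run of letters and not an occupied site.

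**Figure D4:**
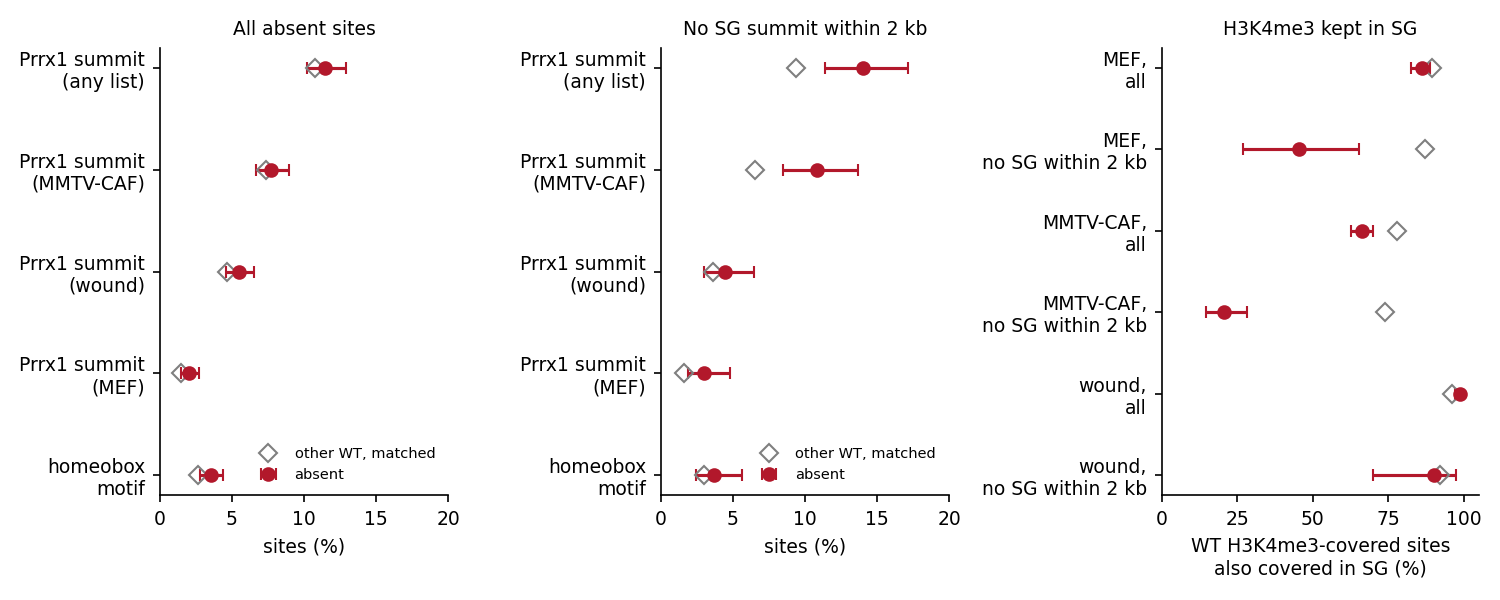
Percentage of recurrently absent sites (red, with Wilson 95% intervals) and of other WT sites matched on WT pattern and strength (open diamonds) with Prrx1 summits within 500 bp or the homeobox motif, for all absent sites (left) and isolated ones (middle). Right, of sites under H3K4me3 in the WT list of a type, the percentage also under H3K4me3 in its SG list; in MMTV-CAF it was 66.4% for all and 20.6% for isolated absent sites, against 77.8% and 74.0% matched.

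KI presence did not enter the rule, although KI summits were merged with the others and so helped set the bounds of the sites. Of the 1633 absent sites that WT_MEF held, 401 had a KI summit, which is 24.6% (22.5 to 26.7%) against a matched share of 32.7%. With sites merged without the KI list the shares were 25.9% (23.9 to 28.1%) and 33.5%. The share rose with the number of SG lists that held a site: reweighted to the strengths of the absent sites it was 24.6% for none, 29.1% for 1, 32.4% for 2 and 37.7% for all 3. The rise was steepest for sites of MEF and MMTV-CAF (14.7%, 20.4%, 25.1% and 32.2%). For sites of MEF and wound fibroblasts the shares were 39.9%, 43.4%, 43.4% and 45.2%, and for sites of all 3 types 42.2%, 41.99%, 46.6% and 50.5%. Absent sites thus had a KI summit less often than WT sites of the same strength and pattern. At promoters the order was the other way: 176 of 366 absent sites within 1 kb of a TSS had a KI summit, 48.1% (43.0 to 53.2%) against 44.2% matched, whether or not WT_MEF held them. Among isolated sites held by WT_MEF, 76 of 476 had a KI summit, 16.0% (13.0 to 19.5%) against 26.2%. The KI list was the smallest and weakest of the 7, with a median −log10 p of 11.9, and its part in these shares was not tested. Every matched site also has an SG summit by definition, while absent sites have none. The gaps and the rise therefore cannot tell genotype from how readily a site is called in any list.

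The KI list shared more of the absent than of the gained sites. Absent sites held by WT_MEF had a KI summit in 24.6%, while gained sites held by SG_MEF had one in 257 of 1982, or 13.0% (11.6 to 14.5%), and 13.7% after reweighting to the strengths of the absent sites. Among isolated sites the shares were 16.0% and 10.8% (8.86 to 13.1%), and 9.73% after reweighting. More than 1 kb from a TSS they were 18.97% (17.0 to 21.2%) and 13.7% (12.1 to 15.4%). The sign of this difference was the same under every alternative tried, at 5.215 to 19.9 points.

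**Figure D5:**
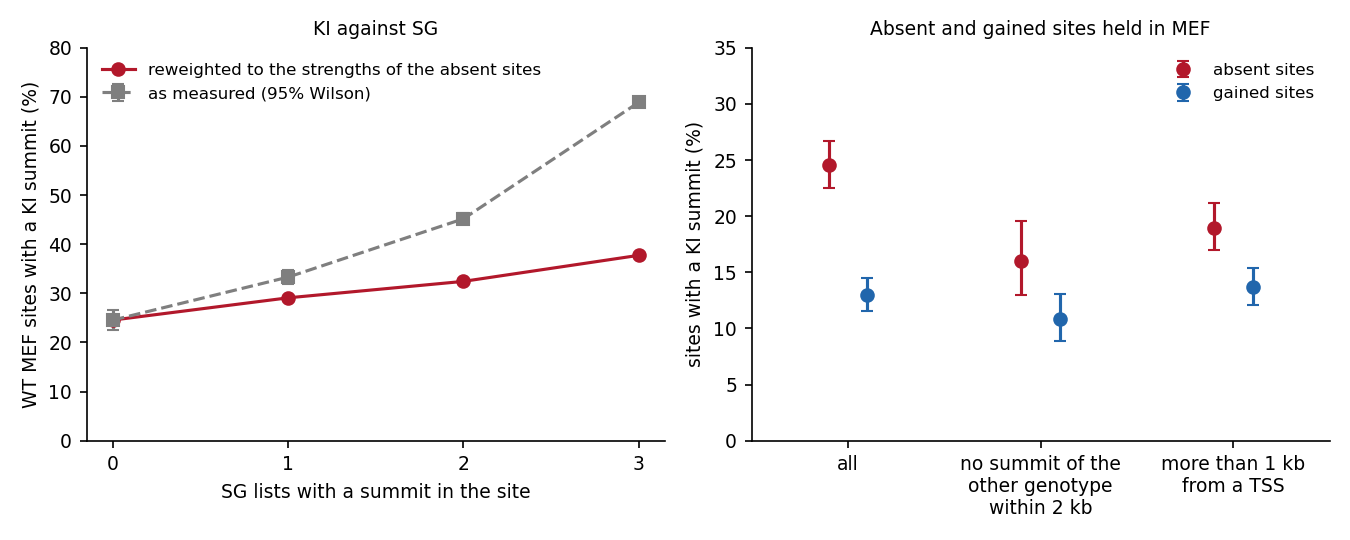
Left, percentage of sites held by WT_MEF that had a KI summit, by the number of SG lists with a summit in the site, as measured (grey, Wilson 95% intervals) and reweighted to the strengths of the absent sites (red). Right, the same percentage for absent sites held by WT_MEF (red) and gained sites held by SG_MEF (blue), not reweighted, 24.6% and 13.0% over all sites.

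H3K4me3 came from separate libraries and gave a second view of the absent sites. Of the 681 absent sites that were held by WT_MMTV and lay under an H3K4me3 region of WT_MMTV, 452 also lay under one of SG_MMTV, or 66.4% (62.7 to 69.8%) against 77.8% matched. In MEF the share was 399 of 464, or 86.0% (82.5 to 88.9%) against 89.4%. In wound fibroblasts it was 491 of 498, or 98.6% (97.1 to 99.3%) against 96.1%. The share was thus below the matched one in MMTV-CAF and MEF and above it in wound fibroblasts. In KI_MEF it was above the matched one as well, with 338 of the same 464 sites, 72.8% (68.6 to 76.7%) against 69.5%. When the sites were chosen without the MMTV-CAF lists, the difference in MMTV-CAF was 0.101 points in place of -11.4.

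At the isolated sites the gap was wider in MMTV-CAF and MEF. All of the matched sites have an SG acetylation summit by the way they were defined, while the isolated sites have none within 2 kb. In MMTV-CAF 27 of 131 kept an H3K4me3 region, 20.6% (14.6 to 28.3%) against 74.0% matched. In MEF it was 10 of 22, 45.5% (26.9 to 65.3%) against 87.3%, and in wound fibroblasts 18 of 20, 90.0% (69.9 to 97.2%) against 92.2%. More than 1 kb from a TSS, 22 of 122 isolated sites kept it in MMTV-CAF, 18.03% (12.2 to 25.8%). These regions were weak, with a median fold enrichment of 2.91 in WT_MMTV at the 27 that kept one, whereas it was 8.52 over all absent sites that kept one. Over all absent sites that kept a region, isolated or not, the median log2 ratio of SG to WT was 0.09 for MEF (0.07 at other WT sites), 0.17 for MMTV-CAF (0.15) and 0.24 for wound fibroblasts (0.19). At the isolated sites it was -0.06, 0.02 and 0.21 over 10, 27 and 18 sites.

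Over all absent sites 366 (17.4%, 15.9 to 19.1%) had the TSS of a protein-coding gene within 1 kb, against 16.4% matched. This difference of 1.03 points turned negative under 8 of the alternatives tried, down to -21.4 points with no matching. A further 913 were in introns, 100 in exons and 720 were intergenic. Most absent sites had acetylated neighbours: 78.8% had another WT site, one that an SG list held, within 10 kb. No other site of at least 2 WT lists lay within 10 kb of 18.9% of the absent and 28.6% of the other WT sites, with medians of 2 and 1 such neighbours. An absent site had another absent site within 10 kb in 18.2% of cases, and other WT sites, not reweighted, had one in 11.0%. Absent sites made up from 4.85% of the WT sites on chromosome X to 8.11% on chromosome 15.

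Genes were assigned by a site in the gene or within 10 kb, and 1706 of 13468 protein-coding genes with a WT site had an absent one. The genes with most absent sites are given with their numbers of WT sites. Over all protein-coding genes 5.72% of the WT sites were absent, and 1.27% were isolated absent sites. Gm20388, a gene model that runs over many others, had 13 of 229, close to the share of absent sites over all genes. Zfp521, a zinc finger factor of mesenchymal progenitors, had 6 of 14, and Cacnb2, a calcium channel subunit, had 6 of 9, of which 4 and 5 were isolated. Cdkal1, a tRNA-modifying enzyme, had 5 of 13, all of them isolated. Ghr, the growth hormone receptor, had 4 of 7, and Trio and Arfip1 had 5 of 24 and 5 of 21.

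The gene list of the extracellular matrix had the highest share of absent sites among 8 lists that were chosen with earlier results of these data known. Of its 162 WT sites 21 were absent, 13.0%, whereas 5.72% of the WT sites of all protein-coding genes were, and 8.12% of all WT sites with the same strengths and patterns. Of the 26 matrix genes with a WT site 12 had an absent one, 46.2%, against 12.7% of all protein-coding genes with a WT site. Matrix genes held 162 WT sites over 26 genes, and all protein-coding genes 27168 over 13468. Of the 21 absent sites 8 were isolated (4.94%, against 1.27% over all genes and 1.89% at like strength and pattern). WT sites of the 8 lists had medians of 2 to 4 WT neighbours within 10 kb (matrix 3), and those of all genes 1. This density was not matched. These are counts of a few sites and no test was made.

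The absent matrix sites had strengths of 6.76 to 18.9. Col1a2, which encodes a chain of collagen I, had 4 of 15, all held by WT_MMTV and WT_Wound: in WT_MMTV their −log10 p was 18.5, 15.5, 18.1 and 9.42, and in WT_Wound 6.82, 5.95, 8.05 and 6.82. At Col1a1, the other chain, 1 of 5 was absent (chr11:94813236-94813778), with 18.5 in WT_MMTV and 11.8 in WT_Wound, and its SG summits were 2547 to 3470 bp away. Col5a1 had 3 of 9, of which a pair in an intron had no SG summit within 50 kb, at strengths of 14.6 and 6.76. The only WT site at Lum, a matrix proteoglycan, was absent, with 6.50 in WT_MEF and 11.5 in WT_MMTV. Sparc had 2 of 12, Dcn, the proteoglycan decorin, 2 of 5, Thbs1 2 of 5, Thbs2 1 of 9, Fbn1 1 of 18, and Tnc 1 of 2. At Col12a1 2 of 4 were absent and both had a KI summit, at 8.88 and 13.8. Postn, Fn1, Lox and the Col6 genes had none.

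The contractile list, the actin and smooth muscle genes of myofibroblasts, had 20 of 200 absent (10.0%, against 6.91% at like strength and pattern). Cald1, which encodes caldesmon, had 5 of 37 and Myh9, non-muscle myosin, had 5 of 19, but only 2 sites of the list were isolated, at Myh9 and at Mkl2, a coactivator of Srf. Acta2, Tagln, Cnn1, Myl9, Tpm2, Lmod1 and Actn1 had WT sites but no absent one. Adhesion and motility genes had 12 of 117 (10.3% against 7.12%), with 4 at Itgb5, a vitronectin receptor subunit. Wnt and BMP genes had 9 of 83 (10.8% against 7.62%), among them Id1, Id3, Wnt5a and Grem1.

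The remaining lists were close to their like-strength shares. TGF-beta genes had 14 of 202 absent, 6.93% against 7.02%, and none of the 14 was isolated. Smad7, the inhibitory Smad, had 4 of 15 with strengths from 11.7 to 30.4, and Smad3, a receptor-regulated Smad, had 2 of 29. Mesenchymal transcription factors had 20 of 235 (8.51% against 7.91%), among them 4 at Nfix, 3 at Fosl2 and 2 at Twist2. Growth factor genes had 9 of 103 (8.74% against 7.67%), 3 of them at Egfr, and inflammatory genes 5 of 61 (8.20% against 7.49%), 3 of them at Csf1. At Prrx1 the absent site was in an intron, with 15.9 in WT_MEF and 24.0 in WT_MMTV, and SG summits lay 9080 bp (MEF), 967 bp (MMTV-CAF) and 1003 bp (wound) from it.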

How the data were processed

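ChIP-seq of H3K27ac, H3K4me3 and Prrx1 was analysed from 17 deposited lists of called peaks; 24 samples, inputs included, are in the series. According to the study's methods and the submitters' processing notes, the authors used Trimmomatic for trimming, Bowtie for alignment to mm9 and MACS2 for peaks of each library against its input, after duplicate reads had been removed. For Prrx1 the methods also name IgG as control, and which control its deposited lists were called against was not settled here. For H3K27ac and for Prrx1 the deposited files give summits of 1 bp and a score that was read as the −log10 p-value, and whether it is a p or a q value is not given in the files. The H3K4me3 lists deposited by the authors hold regions with a fold enrichment (a ratio to input) and a −log10 p-value. The lists carry no read counts, so depth is unknown, and they have no values below the caller's threshold. A missing summit therefore means only that none was called. The lowest H3K27ac value was above 5 in every list and Prrx1 lists went down to 3, and for Prrx1 it is not stated whether duplicates were pooled.

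Summits were widened by 250 bp on each side and merged. Other WT sites were reweighted by direct standardisation over WT pattern and 10 classes of strength. Genes were taken from GENCODE vM1 on NCBIM37 (22380 protein-coding genes), a promoter being within 1 kb of a TSS, a gene's sites within 10 kb, and sequence was read 100 bp on each side of the strongest WT summit. Wilson 95% intervals cover counting error over sites only, and sites are not replicate cultures. With 1 library per group no test was made. The members, gene lists and naming rule were chosen with earlier results of these data known. Named were the 12 strongest of all sites, among those of all 3 WT lists and among those with a Prrx1 summit, sites with Prrx1 summits of at least 2 lists, the 10 genes with most absent sites, listed genes with an absent site, and Prrx1. The 12 strongest isolated sites, the genes led by isolated sites, the Antxr2 sequence, the split at 2 kb, the comparison with gained sites and H3K4me3 retention were added after the data were seen. Scripts used matplotlib 3.10.9, pysam 0.24.0, scipy 1.17.1, pandas 2.3.3 and numpy 2.4.6 under Python 3.11.15, and were tested on simulated sites. An item among the strongest sites and one among the genes are not reported here. Alternatives changed the width, the −log10 p threshold, list size, the lists used and the matching.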

Additional observations from a re-analysis of the deposited data

Results flagged for a closer look

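The share of absent sites under H3K4me3 moved in opposite directions between fibroblast types, each type over the sites that its own WT list held. From WT to SG it changed by -3.55 points in MEF (28.4% to 24.9% of 1633 sites), by -9.27 points in MMTV-CAF (41.5% to 32.3% of 1640) and by 7.79 points in wound fibroblasts (45.6% to 53.4% of 1091). Matched other WT sites moved the same way. Over all 2099 absent sites, with no condition on the type's own WT list, the shares went from 28.8% to 25.3% in MEF (matched 27.3% to 24.6%), from 48.9% to 41.1% in MMTV-CAF (51.8% to 50.7%) and from 27.8% to 32.8% in wound fibroblasts (26.9% to 32.3%). The difference between types was not tested, since each type and genotype had 1 library. The H3K4me3 lists also differed in size: SG_MEF had 14668 regions and WT_MEF 16089, SG_MMTV 29166 and WT_MMTV 27339, and SG_Wound 19641 and WT_Wound 16961. The part of list size in these shares was not tested.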

How the results depend on the processing

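WT and SG lists pair by fibroblast type, and a paired analysis over these 3 pairs was not made. The labels carry no replicate numbers to pair by. Differences below are in percentage points, absent minus matched sites unless stated.

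The number of absent sites (2099) was 832 with summits widened by 500 bp, 1042 when WT summits needed a −log10 p of 10, 1166 without the MEF lists and 1222 without the MMTV-CAF lists. Its ratio to gained sites (0.631) was 0.187 with that WT threshold, 0.947 with lists of equal size and 1.04 without the wound lists. The share with an SG summit within 2 kb (73.1%) was 32.8% at 500 bp, 77.7% with the WT threshold, 70.45% with equal lists, and 80.0%, 85.35% and 62.7% without MEF, MMTV-CAF and wound lists.

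KI presence (-8.14) stayed negative under the alternatives run for it, though at promoters alone absent sites stood above matched ones (48.1% against 44.2%): -11.5 at 500 bp, -12.45 without MEF, -11.15 without wound, -10.6 when matched on the lowest strength, -33.3 with no matching and -10.7 beyond 1 kb from a TSS. KI presence against gained sites (10.8) stayed positive: 7.62 at 500 bp, 7.26 with a threshold of 10 in every list, 14.5 with the WT threshold, 17.3 with equal lists, 13.7, 19.9 and 5.215 without MEF, MMTV-CAF and wound lists, 6.235 at isolated and 6.37 at distal sites.

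Prrx1 summits (0.691) turned in sign: 2.94 at 500 bp, -1.44 without MEF, -1.005 without MMTV-CAF, 2.61 without wound, -0.339 matched on the lowest strength, -0.514 for Prrx1 summits within 250 bp, -4.37 with no matching and 4.65 at isolated sites. TAATTA (0.903) was -0.0697 without MEF and -0.297 without MMTV-CAF. The promoter share (1.03) was -4.02 at 500 bp, -0.914 with a threshold of 10 in every list, -4.10 with equal lists, -7.69, -1.11 and -6.64 without MEF, MMTV-CAF and wound lists, -21.4 with no matching, 4.13 within 2 kb of a TSS and -7.61 at isolated sites.

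H3K4me3 cover (-3.61) was -12.65 at 500 bp, -6.02 with a threshold of 10, -6.64, -0.998 and -13.8 without MEF, MMTV-CAF and wound lists, -5.955 matched on the lowest strength, -24.9 with no matching and -18.7 at isolated sites. Retention in MMTV-CAF (-11.4) was -29.97 at 500 bp, -6.72 with the WT threshold, -17.7 with equal lists, 0.101 without MMTV-CAF, -16.3 without wound, -22.9 with no matching and -53.4 at isolated sites. The causes were not tested. Depth is unknown, so a summit under the caller's threshold cannot be told from none.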
